A study of Mus musculus with 6 samples.

Results

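The genes described here are 10 members of the cyclic AMP pathway in mouse group 2 innate lymphoid cells (ILC2s): the adenylyl cyclase Adcy7, the phosphodiesterases Pde3b, Pde4a, Pde4b, Pde4d and Pde7a, the protein kinase A subunits Prkar1a and Prkaca, and the transcription factors Crem and Creb1. They were taken by symbol from a list of adenylyl cyclase, phosphodiesterase, protein kinase A and CREB genes, and all 10 are among the 16381 genes of the table and the 14419 genes tested. ILC2s were sorted from the lungs of wild type BALB/c mice, which the methods describe as female and 6 to 8 weeks old, after intranasal IL-33 at 0.5 µg per day for 3 days. The sort kept live CD45+, lineage-negative, ST2+ and CD127+ cells at a stated purity above 95%. The cells were then cultured for 24 h with 250 µM melatonin or with DMSO, its solvent (vehicle), and RNA was sequenced from 3 samples of each group. Both groups therefore carry the IL-33 challenge and the solvent, and no unchallenged or untreated group was analysed here. Nothing in the labels says that the samples of a group came from separate animals or cultures, so the p-values measure only the spread between these samples, which may be technical in part. Melatonin replicate 1 and melatonin replicates 2 and 3 cannot all be repeats of 1 source, since they differ in the sex-linked transcripts given below.

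Cyclic AMP is a second messenger made from ATP by adenylyl cyclases, which stimulatory G proteins switch on and inhibitory G proteins restrain. It binds the regulatory subunits of protein kinase A, which frees the catalytic subunits to phosphorylate targets that include the transcription factor CREB, and it is removed by phosphodiesterases. In lymphocytes and ILC2s, prostaglandin and neuropeptide receptors act through this pathway, and raised cyclic AMP is known to restrain cytokine output of T cells. Several genes of the pathway, such as Crem and the PDE4 genes, are known targets of CREB themselves, which makes them part of a feedback loop.

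The deposited normalised counts correspond to between 17056239 and 20511667 estimated reads per library, and 1 read was worth between 0.933 and 1.09 normalised counts. Transcripts of 4 Y-linked genes (Ddx3y, Eif2s3y, Kdm5d and Uty) summed to between 2680 and 3038 in melatonin replicate 1 and the 3 vehicle libraries and were listed at 0 in melatonin replicates 2 and 3, in which Xist stood at 579 and 1091 against at most 13.6 in the other 4 libraries. The libraries of the groups thus do not match in the sex of their source, against the description of the animals, and the fold changes, shares and ratio were also computed with melatonin replicates 2 and 3 both left out. The library names carry separate ranges of numbers for the groups, and the labels do not say what the numbers stand for. All 12 ILC2 markers examined were listed, with sums between 128577 and 135455 in melatonin and between 174919 and 188395 in vehicle libraries. Of these markers 2 were called higher (Il1rl1 and Rora) and 7 lower, Il5 holding most of the lower sum at 49950 against 83072 on average. Gata3 was not called (20469 against 19365, limma adjusted p = 0.667). For all marker counts given here, the shares over all genes tested were 24.5% called higher and 24.7% called lower. Markers of other cells moved as well: of the tested markers, 5 of 5 for T cells, 6 of 7 for myeloid cells, 2 of 3 for B cells and 4 of 4 for NK cells and ILC1 were called lower with melatonin. Of 5 for lung epithelium, 3 were called lower and Epcam higher (1097 against 667 on average), and the sums overlapped, at 1039 to 1237 with melatonin and 895 to 2238 with vehicle. The NK cell and ILC1 sum was between 85.0 and 214.1 with melatonin and between 6020 and 7285 with vehicle, most of it Gzma. The mast cell and basophil sum, nearly all of it Kit, was between 2178 and 5937 with melatonin and between 1658 and 1768 with vehicle. The single listed marker of endothelium, Pecam1, was called lower, and the erythroid sum was at most 51.3 in any library. Cd4, Cd5, Cd8a, Cd8b1, Ms4a1, Fcer1a and Ms4a2, which define such cells, are not listed. The part of these shifts in the results below was not tested, and in bulk RNA a smaller number of cells of a type and less RNA per cell cannot be told apart.

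With melatonin, 5 of the 10 genes were called higher (Pde3b, Pde7a, Crem, Prkaca and Pde4d), 2 were called lower (Adcy7 and Pde4b) and 3 were not called (Pde4a, Prkar1a and Creb1), where a call is a limma adjusted p under 0.05 over all genes tested. Among all 14419 genes, 24.5% were called higher and 24.7% lower. The melatonin samples lay above every vehicle sample for the 5 genes called higher and below every vehicle sample for the 2 called lower, which was true of 30.0% and 30.3% of all genes. The median log2 fold change was 0.44 over the 10 genes and -0.00 over all genes tested. Since the 10 genes were chosen with earlier results of these data known, these counts and medians are descriptions only. The sizes of the changes differed widely: 4.42% of all genes had a larger absolute log2 fold change than Pde3b, and 90.0% had a larger one than Creb1.

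**Figure D1:**
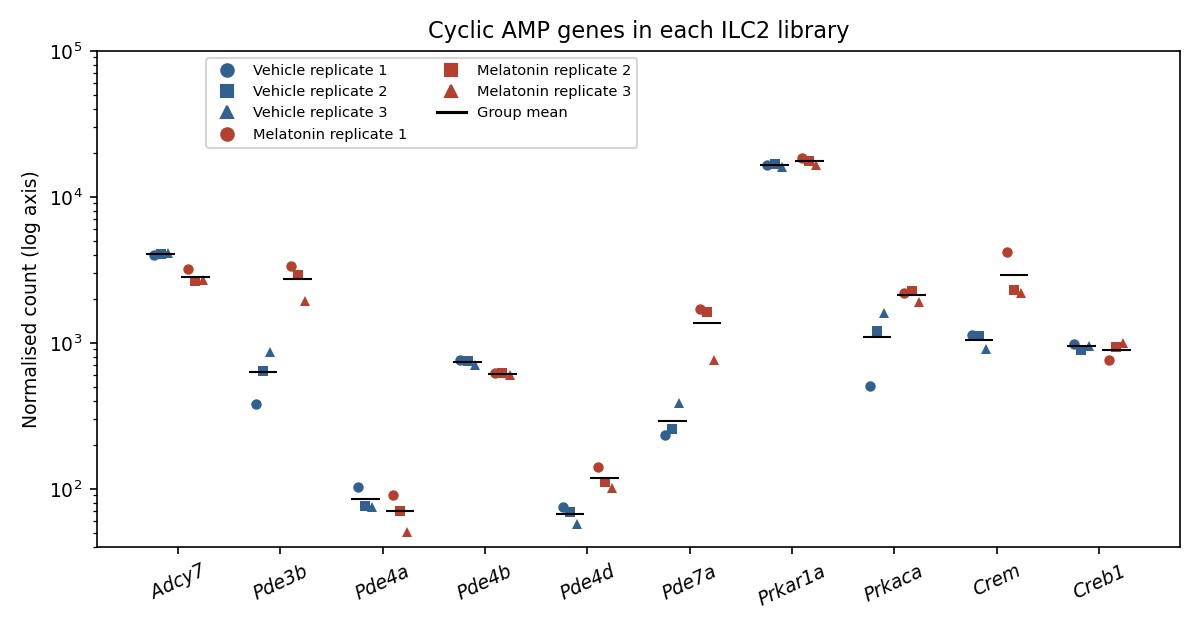
Normalised count of each of the 10 genes (log axis) in the 3 vehicle and 3 melatonin libraries, with symbols for replicates and a line at each group mean. Pde3b and Pde7a separate widely between the groups, Prkar1a and Creb1 overlap, vehicle replicate 1 is low for Prkaca and melatonin replicate 1 is high for Crem.

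Levels between genes were compared per kilobase of merged exon, as normalised counts divided by exon length. Merged exons cover all annotated transcripts of a gene, so a gene with many transcripts can appear lower per kb. In vehicle samples Prkar1a was the most abundant at 1680 ± 42.1 per kb (SD, n = 3), followed by Prkaca at 391 ± 195 and Adcy7 at 350 ± 5.91, which overlapped each other. Crem stood at 93.0 ± 10.6, Creb1 at 67.2 ± 3.21, Pde4b at 62.7 ± 2.61, Pde3b at 49.1 ± 18.9 and Pde7a at 28.8 ± 8.09 per kb. Of these neighbours, Crem lay above Creb1 in every sample, while Creb1, Pde4b and Pde3b each overlapped the next in order, and Pde7a lay above Pde4a in every sample. Pde4a at 9.97 ± 1.80 and Pde4d at 4.66 ± 0.626 per kb were the least abundant. With melatonin, Crem at 257 ± 99.9 and Pde3b at 214 ± 56.2 per kb stood at the 3rd and 5th places by mean, where they had been 4th and 7th. Crem, Adcy7 and Pde3b overlapped there, and Crem lay above Adcy7 only in melatonin replicate 1.

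Adcy7, on chromosome 8 (GRCm39 chr8:88998882-89059394, plus strand), encodes a membrane adenylyl cyclase of blood cells. Its normalised counts were 3181, 2647 and 2681 in the melatonin samples and 3993, 4034 and 4127 in the vehicle samples. Every melatonin sample lay below every vehicle sample, and the vehicle samples were within a few percent of each other. The ratio of means was 0.70, with a log2 fold change of -0.52 (95% interval -0.72 to -0.32; limma adjusted p = 0.00161). The call held with each library left out in turn and with melatonin replicates 2 and 3 both left out, where the change was -0.35. About 13.0% of the exon bases of Adcy7 also belong to Brd7 on the opposite strand, and whether reads were assigned by strand is not given. Brd7 averaged 1381 normalised counts with melatonin and 1025 with vehicle, and its part in the counts of Adcy7 was not tested. Of the other adenylyl cyclases, 4 of 9 were listed and tested, and 1 was called higher and 2 lower. Over all genes tested, 24.5% were called higher and 24.7% lower. Adcy3 was called higher, with 1747, 1528 and 1252 normalised counts against 925.3, 1186 and 1124 (log2 fold change 0.48, limma adjusted p = 0.0197). That call was lost with melatonin replicate 2 left out (limma adjusted p = 0.0591) or vehicle replicate 1 left out (limma adjusted p = 0.0722). It was also lost with the trend on merged exon length removed (0.31, limma adjusted p = 0.0944). The genes called lower, Adcy4 and Adcy6, had at most 34.6 normalised counts in any library. Adcy6 remained called with each library left out, while the call of Adcy4 was lost without melatonin replicate 3, vehicle replicate 1 or vehicle replicate 3 (limma adjusted p = 0.0639, 0.0710 and 0.0965) and with melatonin replicates 2 and 3 both left out (limma adjusted p = 0.0926).

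The phosphodiesterases moved in both directions. Pde3b, which breaks down cyclic AMP and is inhibited by cyclic GMP, and Pde7a, which is specific for cyclic AMP, rose most of the 10 genes. Pde3b (GRCm39 chr7:114013685-114138486, plus strand) had 3350, 2924 and 1943 normalised counts with melatonin and 382.7, 640.9 and 866.6 with vehicle. The lowest melatonin sample held more than the highest vehicle sample, although the samples within each group were spread. The log2 fold change was 2.16 (95% interval 1.51 to 2.81; limma adjusted p = 0.000509), a ratio of means of 4.35. Pde7a (GRCm39 chr3:19277270-19365890, minus strand) had 1694, 1621 and 768.0 normalised counts with melatonin and 232.4, 257.7 and 385.1 with vehicle. Melatonin replicate 3 was the lowest of its group for both genes and vehicle replicate 3 the highest of its group, and the groups did not overlap for either. The log2 fold change of Pde7a was 2.17 (95% interval 1.48 to 2.85; limma adjusted p = 0.000606), a ratio of means of 4.67. With each library left out in turn the log2 fold changes ranged from 1.84 to 2.43 for Pde3b and from 1.97 to 2.54 for Pde7a, and both remained called. Of the exon bases of Pde7a, 3.07% also belong to Mtfr1 on the opposite strand. Mtfr1 averaged 2083 normalised counts with melatonin and 1675 with vehicle, and its part in the counts of Pde7a was not tested.

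The 3 PDE4 members encode phosphodiesterases specific for cyclic AMP, the family that rolipram inhibits, and they did not move together. Pde4b (GRCm39 chr4:101944740-102465716, plus strand), the most abundant of them, had 624.7, 620.6 and 599.1 normalised counts with melatonin and 765.4, 750.5 and 706.1 with vehicle. The groups did not overlap, and the difference was small, with a mean 17.0% lower and a log2 fold change of -0.27 (95% interval -0.47 to -0.07; limma adjusted p = 0.0318). The call held in only 1 of the 6 fits with 1 library left out: the adjusted p was 0.0265 without melatonin replicate 1, 0.0622 without melatonin replicate 2, 0.0623 without melatonin replicate 3, and 0.117, 0.103 and 0.0509 without vehicle replicates 1, 2 and 3. It was also lost with melatonin replicates 2 and 3 both left out (limma adjusted p = 0.0869). With the trend on merged exon length removed the change was -0.44 (limma adjusted p = 0.00609). Pde4d (GRCm39 chr13:108586482-110092497, plus strand) had 140.1, 111.4 and 101.5 normalised counts with melatonin and 75.6, 69.3 and 57.7 with vehicle. Its groups did not overlap, and its log2 fold change was 0.79 (95% interval 0.33 to 1.25; limma adjusted p = 0.0117). This call held with each library left out, while removal of the trend of the values on merged exon length gave 0.62 with a limma adjusted p of 0.0512. Pde4a (GRCm39 chr9:21073005-21124544, plus strand) had 90.6, 71.0 and 50.3 normalised counts with melatonin and 102.7, 76.8 and 75.5 with vehicle. These values overlapped, and the 95% interval of the log2 fold change, -0.87 to 0.29, leaves room for a change in either direction (limma adjusted p = 0.372). The counts are sums over all transcripts of a gene, so the long and short PDE4 isoforms were not resolved.

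**Figure D2:**
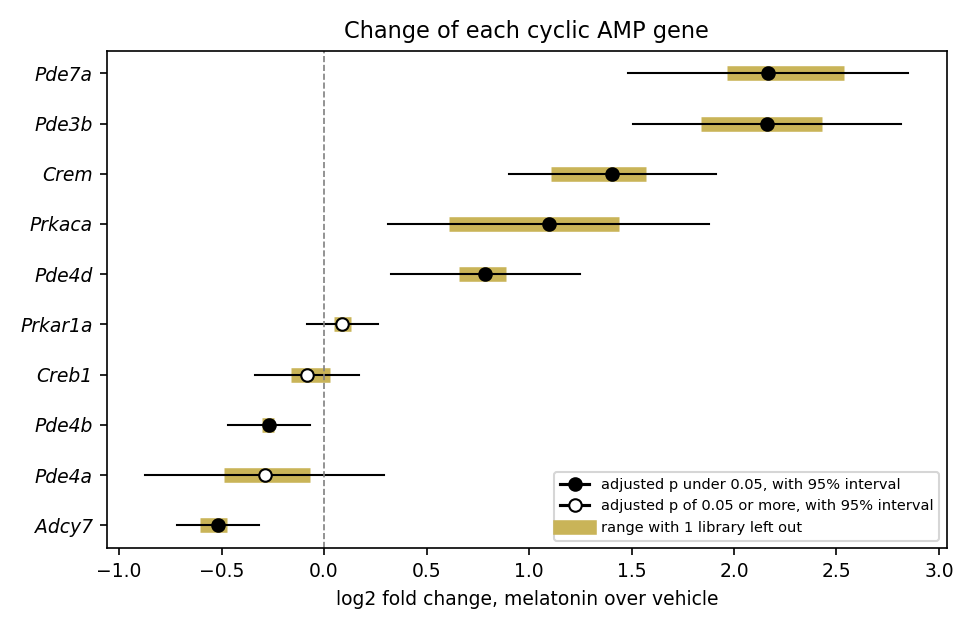
log2 fold change of each gene, melatonin over vehicle (points), with its 95% interval (lines) and the range of the estimate with 1 library left out (bands). Filled points passed a limma adjusted p under 0.05; Pde7a and Pde3b lie near 2.2, and the intervals of Prkar1a, Creb1 and Pde4a include 0.

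Per kilobase, the 15 listed phosphodiesterases that act on cyclic nucleotides summed to 647, 567 and 374 normalised counts per kb in the melatonin samples and 179, 207 and 242 in the vehicle samples. The means differed 2.53-fold and the groups did not overlap (exact two-sided permutation p = 0.1, the smallest that 3 samples against 3 allow). Pde4b held the largest mean share in vehicle samples at 30.5% ± 5.81 (SD, n = 3), and 10.3% ± 2.85 with melatonin. Pde3b held 22.9% ± 5.68 in vehicle samples and 40.3% ± 0.154 with melatonin, where it came first, and in vehicle replicate 3 its share of 27.9% already exceeded the 24.6% of Pde4b. Pde7a held 13.6% ± 1.82 and 24.8% ± 4.09, and Pde8a 12.3% ± 3.74 and 11.9% ± 1.11, which overlapped Pde7a in vehicle samples. The 4 PDE4 genes together made up 12.3%, 13.7% and 20.7% of this level in the melatonin samples and 50.1%, 41.5% and 33.2% in the vehicle samples (exact two-sided permutation p = 0.1); leaving the listed genes that do not break down cyclic nucleotides out of the sum was chosen after the data were seen. Over all listed phosphodiesterases, including the prenyl-binding subunit Pde6d and the RNA-degrading Pde12, the PDE4 share was 7.03% ± 1.03 with melatonin and 16.5% ± 1.59 with vehicle (exact two-sided permutation p = 0.1). A share falls when other genes rise, and here the level of Pde4b fell far less than its share.

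**Figure D3:**
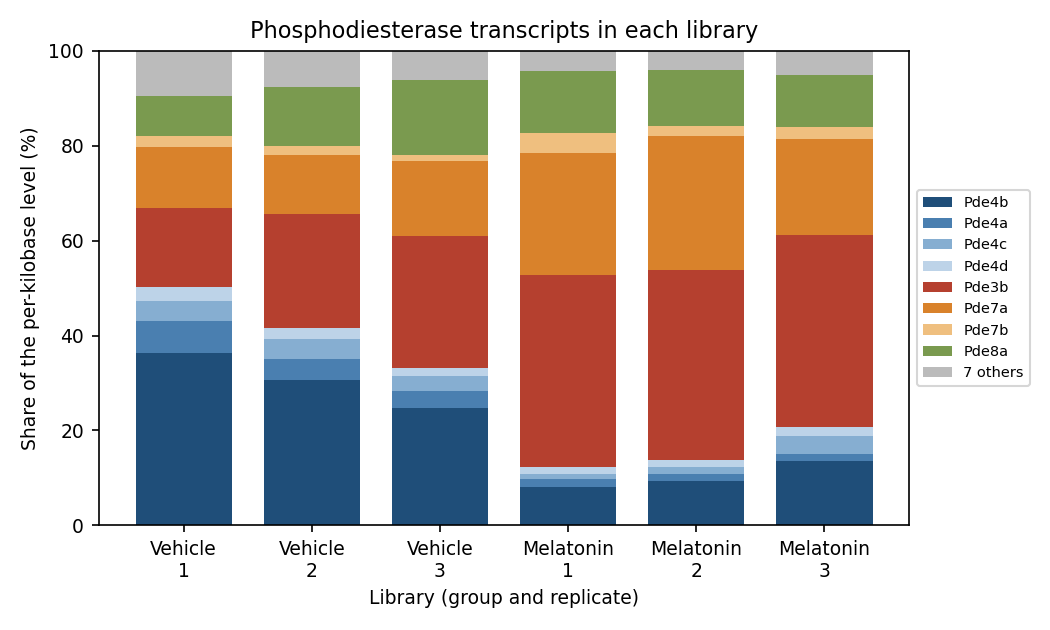
Share of the summed per-kilobase level held by each of 15 cyclic nucleotide phosphodiesterases (%) in each library, with the 7 genes not named in the legend drawn together in grey. The blue PDE4 segments fill between 33.2% and 50.1% of the vehicle bars and between 12.3% and 20.7% of the melatonin bars.

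Of the 20 other phosphodiesterase genes, 12 were listed and 10 tested, of which 4 were called higher, 1 lower and 5 were not called. Pde7b, the close relative of Pde7a, had 338.0, 139.8 and 116.6 normalised counts with melatonin and 52.3, 50.6 and 38.8 with vehicle (log2 fold change 1.89, limma adjusted p = 0.00308). Melatonin replicate 1 was the highest of its group, and the change was 1.43 without it and 2.83 with melatonin replicates 2 and 3 both left out. Pde8a, a high-affinity cyclic AMP phosphodiesterase, had 529.5, 417.4 and 254.3 against 94.3, 161.2 and 241.3 normalised counts (log2 fold change 1.31, limma adjusted p = 0.0143), and its call was lost without melatonin replicate 2 (limma adjusted p = 0.0504). Pde6d, which carries prenylated proteins and has no catalytic activity, had 1322, 1214 and 1199 against 456.4, 390.7 and 402.9 (log2 fold change 1.58, limma adjusted p = 2.23e-05). The cyclic GMP phosphodiesterase Pde5a was also called higher, and Pde11a, with at most 51.4 normalised counts, was called lower. That call of Pde11a was lost without melatonin replicate 3, vehicle replicate 1 or vehicle replicate 3 (limma adjusted p = 0.0532, 0.0794 and 0.0787) and with melatonin replicates 2 and 3 both left out (limma adjusted p = 0.109).

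Prkar1a, the type I regulatory subunit of protein kinase A that holds the catalytic subunit inactive, was the most abundant of the 10 genes and changed little. The gene (GRCm39 chr11:109513434-109560633, plus strand) had 18395, 17504 and 16440 normalised counts with melatonin and 16492, 16732 and 15933 with vehicle. The groups overlapped, and the log2 fold change was 0.09 (95% interval -0.09 to 0.26; limma adjusted p = 0.36). Prkaca, the main catalytic subunit (GRCm39 chr8:84699575-84723091, plus strand), had 2179, 2267 and 1916 normalised counts with melatonin and 504.0, 1208 and 1587 with vehicle. Of its exon bases, 8.64% also belong to Gm56840 on the opposite strand, which is not listed. The melatonin samples were close together and above all vehicle samples, of which replicate 1 stood far below the others. The log2 fold change was 1.10 (95% interval 0.31 to 1.88; limma adjusted p = 0.0272). Without vehicle replicate 1 it was 0.61 (limma adjusted p = 0.0107), and without melatonin replicate 1, 2 or 3 the adjusted p was 0.0547, 0.0799 and 0.0508. With melatonin replicates 2 and 3 both left out the change was 1.14 and not called (limma adjusted p = 0.157).

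The ratio of regulatory to catalytic subunits per kb (Prkar1a, Prkar1b, Prkar2a and Prkar2b over Prkaca and Prkacb) was 1.95, 1.92 and 1.99 in the melatonin samples and 4.14, 2.69 and 2.24 in the vehicle samples. Every melatonin sample lay below every vehicle sample (exact two-sided permutation p = 0.1), and the difference of means of -1.07 became -0.51 without vehicle replicate 1. Of the genes in the ratio only Prkaca and Prkar2b were called, both higher, and a rise of Prkar2b raises the ratio. The lower ratio is therefore not a result separate from the change of Prkaca. The other catalytic subunit gene, Prkacb, had 2735, 2295 and 2516 against 2298, 2392 and 2200 normalised counts and was not called (log2 fold change 0.13, limma adjusted p = 0.245). Of the 7 other protein kinase A subunit and inhibitor genes, all tested, 1 was called higher and 1 lower. These make 28.6% called, against 49.2% of all genes tested. Prkar2b, a type II regulatory subunit, had 698.5, 662.1 and 597.1 normalised counts with melatonin and 218.4, 235.2 and 253.9 with vehicle (log2 fold change 1.46, limma adjusted p = 5.48e-05). Pkig, a peptide inhibitor of the catalytic subunit, had 427.7, 419.5 and 434.3 against 588.0, 584.7 and 611.7 (log2 fold change -0.48, limma adjusted p = 0.00303).

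Crem, which encodes activators and, from an internal promoter, the inducible repressor ICER of cyclic AMP responsive genes, rose. The gene (GRCm39 chr18:3260980-3337748, minus strand) had 4199, 2298 and 2201 normalised counts with melatonin and 1129, 1105 and 911.5 with vehicle. Melatonin replicate 1 stood well above the other melatonin samples, and all 3 lay above every vehicle sample. The log2 fold change was 1.41 (95% interval 0.90 to 1.91; limma adjusted p = 0.00115), 1.11 without melatonin replicate 1, and 2.01 with melatonin replicates 2 and 3 both left out, called in both. Counts per gene do not separate ICER from the activator transcripts. Creb1, which encodes CREB itself (GRCm39 chr1:64571731-64643707, plus strand), had 765.7, 930.9 and 997.2 normalised counts with melatonin and 987.5, 897.6 and 950.6 with vehicle. Its groups overlapped and its log2 fold change was -0.08 (95% interval -0.34 to 0.17; limma adjusted p = 0.57). The estimate was 0.03 without melatonin replicate 1 and, with melatonin replicates 2 and 3 both left out, -0.30 and called (limma adjusted p = 0.0429).

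CREB binds the palindrome TGACGTCA and, more weakly, its core TGACG, which reads CGTCA on the other strand. The upstream 250 bases of RefSeq start sites were searched for both on both strands, a core inside a palindrome being counted with it. Promoters were found for 7 of the 10 genes (20 promoters); Pde3b, Pde7a and Crem were not among them. The core was present in 7 of these 20 promoters (35.0%) against 17.8% of 32851 promoters of all genes, and the palindrome in 1 of 20 against 1.55%. Promoters of a gene overlap or share sequence, so these shares are descriptions. The sequences are given 5′ to 3′ on the plus strand, from RefSeq's GRCm38.p6 promoters placed on GRCm39 by their exact match, with the searched letters in capitals. They come from the reference strain, not BALB/c.

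The palindrome lay 49 bases before a start site of Prkar1a (chr11:109541715-109541744), the gene that changed least but for Creb1, and is shown in 30 bases beside the core of a Pde4b promoter (chr4:102278705-102278734), since both lie in exons of other transcripts of the gene.
Prkar1a: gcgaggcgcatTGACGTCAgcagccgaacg
Pde4b: tgatttggctgcaCGTCAattttctcatct

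The upstream sequences of Prkaca (chr8:84699357-84699574, the 218 bases before its first exon), which rose, and of Adcy7 (chr8:89009370-89009619), which fell, each hold 1 core in the stretch printed.
Prkaca: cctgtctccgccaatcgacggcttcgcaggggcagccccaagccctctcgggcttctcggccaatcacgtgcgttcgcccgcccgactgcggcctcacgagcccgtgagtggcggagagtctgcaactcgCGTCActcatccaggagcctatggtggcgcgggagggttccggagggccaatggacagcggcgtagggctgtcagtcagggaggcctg
Adcy7: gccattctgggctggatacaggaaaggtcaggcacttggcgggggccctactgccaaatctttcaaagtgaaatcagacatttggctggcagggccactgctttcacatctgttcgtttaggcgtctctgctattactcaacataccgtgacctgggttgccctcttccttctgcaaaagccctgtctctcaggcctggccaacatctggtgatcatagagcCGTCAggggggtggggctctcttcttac

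Among the 7 genes with promoters, the core stood before Prkaca, called higher, Adcy7 and Pde4b, called lower, and Pde4a and Prkar1a, not called. Pde3b, Pde7a and Crem could not be searched, and a link between the core and the direction of change was not tested. A match of letters is not a binding site, and no promoter of Pde4d or Creb1 in the table held the core.

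The wider pathway was described by a list of 109 further genes, of which 81 were listed and 75 tested. Of these, 18 (against 24.5% of all genes) were called higher and 14 (against 24.7%) lower, and 43 were not called, with a median log2 fold change of 0.11. Of the 9 other genes of the CREB family, its coactivators and the salt-inducible kinases, 1 was called by limma: Atf1, a close relative of CREB, had 667.6, 716.9 and 695.7 normalised counts with melatonin and 1090, 1059 and 1012 with vehicle (log2 fold change -0.60, limma adjusted p = 0.000615). Of the 12 other textbook CREB targets tested, 4 were called higher and 3 lower. These make 58.3% called, against 49.2% of all genes tested. Egr1, an immediate early transcription factor, had 2591, 2539 and 2432 against 781.2, 747.7 and 803.7 normalised counts (log2 fold change 1.70). Btg2, an antiproliferative factor, had a log2 fold change of 1.46, and Fos, a subunit of AP-1, one of 0.53. The change of Btg2 was 1.18 without melatonin replicate 1 and 2.02 with melatonin replicates 2 and 3 both left out. In the other direction, Gem, a small GTP-binding protein, had 110.2, 138.8 and 133.7 against 966.1, 871.4 and 786.9 normalised counts (log2 fold change -2.77), and Areg, the growth factor amphiregulin, one of -1.69.

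Upstream of the cyclase, 6 G protein alpha subunit genes were tested, of which 1 was called higher and 1 lower, and both encode inhibitory subunits. The share called was 33.3%, against 49.2% of all genes tested. Gnai1 was higher, with 184.0, 124.6 and 75.4 normalised counts with melatonin and 30.8, 55.3 and 35.7 with vehicle (log2 fold change 1.59, limma adjusted p = 0.00568), and the change was 2.20 with melatonin replicates 2 and 3 both left out. Gnai2 was lower and had 11860, 10594 and 12189 normalised counts with melatonin and 17321, 17033 and 17640 with vehicle. The groups did not overlap (log2 fold change -0.59, limma adjusted p = 0.000559). The stimulatory subunit Gnas had 18252, 16333 and 16082 against 10046, 14892 and 17417 and was not called (limma adjusted p = 0.195), with vehicle replicate 1 again the lowest. Of the 14 genes tested for Gs-coupled receptors and their partners, the Ramp proteins included, 4 were called higher and 2 lower (42.9% called, against 49.2% of all genes). The 2 called lower were the receptor Gpr65 and the receptor partner Ramp2, which had at most 32.8 normalised counts. Ramp2 lost its call without melatonin replicate 2 or vehicle replicate 2 (limma adjusted p = 0.0560 and 0.0839) and with melatonin replicates 2 and 3 both left out (limma adjusted p = 0.124). The prostaglandin E receptors Ptger2 and Ptger4 had log2 fold changes of 0.78 and 0.63, and the proton-sensing Gpr65 one of -0.30. Without melatonin replicate 1 the change was 0.61 for Ptger2 and 0.45 for Ptger4. With melatonin replicates 2 and 3 both left out it was 1.10 for Ptger2 and 0.99 for Ptger4. Gpr65 lost its call without any 1 of the vehicle samples (limma adjusted p between 0.0514 and 0.0937). With the trend on merged exon length removed its change was -0.11 (limma adjusted p = 0.224). Of 10 anchoring proteins of protein kinase A tested, Akap8l, Akap7 and Akap10 were called higher, with log2 fold changes of 0.94, 0.67 and 0.60, and Akap13 and Akap1 lower, with -0.51 and -0.40. Akap1 lost its call without vehicle replicate 3 (limma adjusted p = 0.0574), and Akap7 with melatonin replicates 2 and 3 both left out (0.56, limma adjusted p = 0.0761). Of the 4 other effectors tested, 1 was called, Rapgef3, the exchange factor Epac1, with at most 4.67 normalised counts with melatonin and between 19.6 and 32.8 with vehicle.

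**Figure D4:**
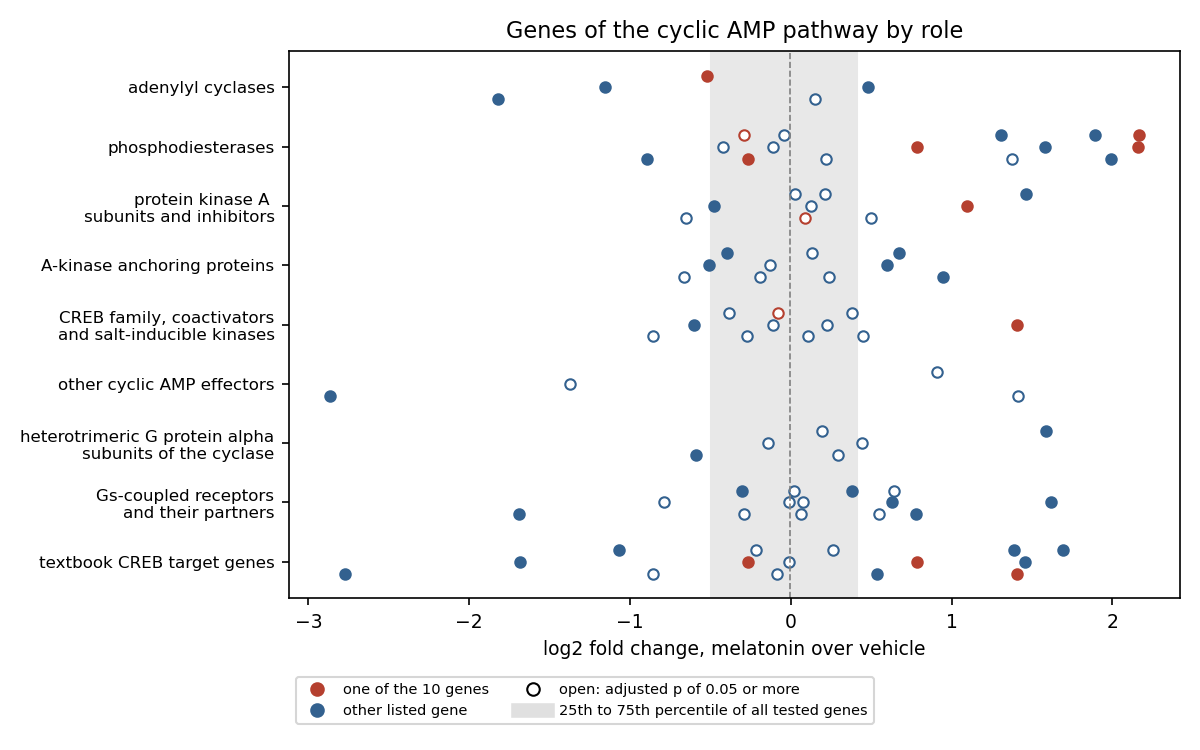
log2 fold change (melatonin over vehicle) of each tested gene of the pathway, in rows by role, with the 10 genes in red and the others in blue, filled where the limma adjusted p was under 0.05. The grey band spans the 25th to 75th percentile of all genes tested, -0.50 to 0.41, and the phosphodiesterases reach furthest to its right.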

How the data were processed

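Reads were quality-trimmed by the authors, STAR 2.7.8a placed them on mm39, and genes of Gencode M33 were quantified with the E/M algorithm of Partek Flow 12.9.0. The authors removed genes under 10 counts in all samples and normalised by the median ratios of DESeq2. The deposited signal is this normalised count per gene and library. Whether strand was used in counting is not given in the sources used here. From the low values, the worth of 1 read and hence the depth of each library was estimated. Between 64.6% and 67.0% of values came out whole within 0.01 read, so the main fit used no count model. A voom fit on the estimated counts was among the alternatives.

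Genes were named from Gencode M39 (16334 of 16381 identifiers), and 1 list gene was matched through an older symbol (Bves, listed as Popdc1). Values were analysed as log2(value + 1) with limma 3.58.1 (R 4.3.3; empirical Bayes with trend) over the 14419 genes with at least 10 in at least 1 sample, so a log2 fold change is on that scale and understates changes of low genes; p-values were adjusted by Benjamini-Hochberg over all of them. Shares and ratios per kb were tested by exact two-sided permutation (SciPy). The fitting script was tested on simulated data. The members and lists were chosen with earlier results of these data known. Named were the 10 members and, from each list, at most 3 rises and 3 falls that were called, averaged 100 or more and did not overlap between groups; 1 gene that this rule names is not reported here, and other genes that are named were picked after their values were seen. Alternatives changed the pseudocount, filter, scaling, trend, weights, model, block, length and GC correction, and the libraries used; where 1 melatonin library remained, it was assumed to vary like the vehicle libraries. All sample columns were mapped (0 unmapped).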

Additional observations from a re-analysis of the deposited data

How the results depend on the processing

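Of 198 refits of single members under the alternatives, 183 kept direction and side of the threshold or were uncalled in both, 13 lost a call and 2 gained one. The number of members called higher was 3 at an adjusted p under 0.01, against 5, and the number called lower was 1 at that threshold, against 2. With 1 library left out in turn, the members called higher numbered 4 to 5 and the members called lower 1 to 2. Of the wider genes, those called lower numbered 8 when genes averaging under 100 were dropped and 9 at an adjusted p under 0.01, against 14, where fewer genes were tested in the former. They numbered 10 to 18 with 1 library left out, and those called higher 15 to 21. Scaling moved the median of all genes to between -0.05 and 0.04. Prkar1a was called under quantile normalization (0.22, limma adjusted p = 0.0292), and Prkaca lost its call without the trend (limma adjusted p = 0.0876), as did Adcy3 (limma adjusted p = 0.0629) and Pde8a (limma adjusted p = 0.0543). Akap1 lost its call under the GC correction (-0.27, limma adjusted p = 0.0546), and Adcy4, Pde11a and Ramp2 under quantile normalization (limma adjusted p = 0.0750, 0.0682 and 0.0525). The cause of these changes was not tested.

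The replicate numbers did not pair the samples: deviations of same-numbered samples correlated at -0.05, 0.01 and -0.05. With the replicate number as a block, the members called lower numbered 1, since Pde4b lost its call (limma adjusted p = 0.0610), and those called higher 5; of the other named genes, Gpr65 (limma adjusted p = 0.0587) and Adcy4 (limma adjusted p = 0.0588) lost their calls.

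With 1 library left out, the PDE4 share differed by -10.3 to -8.72 percentage points over all listed phosphodiesterases and by -30.3 to -21.8 over the catalytic ones, and the ratio of protein kinase A subunits by -1.46 to -0.51. With melatonin replicates 2 and 3 both left out, an alternative chosen for these values after the data were seen, the differences were -10.3, -29.3 and -1.07, and the summed catalytic level was 647 against 209 per kb; these have no test. With the length of the longest transcript in place of merged exons, the PDE4 share over all listed phosphodiesterases was 8.6% with melatonin and 20.9% with vehicle. The ratio of protein kinase A subunits was then 2.21 with melatonin and 3.15 with vehicle. With 3 samples a group, an exact test cannot pass 0.05. Pde4a and Pde4d, with at most 140.1 normalised counts in any library, rest on the fewest reads of the 10 genes.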
